A study of Mus musculus with 5 samples.

Results

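The renin-angiotensin system makes the peptide angiotensin II, which narrows vessels and makes the kidney retain sodium. Renin, released by juxtaglomerular cells of the afferent arteriole, cuts angiotensinogen to angiotensin I, and angiotensin-converting enzyme cuts that to angiotensin II. Peptidases on the brush border of the proximal tubule trim or destroy these peptides, and the receptors on vessels, mesangium and tubules carry the signal. The 8 genes described here were taken by name from the gene tables: the substrate Agt, the enzyme Ren1 and its cofactor Atp6ap2, the peptidases Ace, Mme and Enpep, and the receptors Agtr1a and Mas1. All 8 were found among the 35478 genes listed, and 7 of them were among the 16394 genes that passed the filter on low counts. Mas1 was under it.

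RNA-seq was carried out on kidneys of male mice aged 7 to 8 weeks, 1 library per mouse. Their strain field reads C57BL/6J;129, a mixed background, and their titles name C57BL/6J alone. The controls were 2 Prdm16fl/fl mice, in which exon 9 of both Prdm16 alleles is flanked by loxP sites, and the knockouts were 3 Ksp-Cre/Prdm16fl/fl mice, which carry the same alleles and Cre under the promoter of kidney-specific cadherin, active in tubular epithelium. Every mouse underwent unilateral ischemia-reperfusion injury (UIRI) by clamping the left renal pedicle for 35 minutes at 38.5°C, lost the right kidney at day 10 and was killed 24 hours later, at day 11. No uninjured kidney was among these libraries, so that each comparison is between genotypes within injury. Libraries are named by genotype and the mouse number in their labels: Prdm16fl/fl mice 1 and 3, and Ksp-Cre/Prdm16fl/fl mice 1, 2 and 3. They held 14939040 to 16425161 counts each.

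The libraries carried the markers of kidney. The proximal tubule genes Kap and Slc34a1 were present in each, at 12500 and 18200 CPM (counts relative to the TMM-scaled library total) for Kap in the Prdm16fl/fl mice and at 3000, 4120 and 7400 CPM in the Ksp-Cre/Prdm16fl/fl mice. Markers of tissue next to the kidney were low: the fat gene Adipoq was at 0.0674 CPM or less, and of the 7 adrenal cortex markers, which summed to 5.6 to 8.73 CPM, Cyp11b2 and Nr5a1 were at 0 in all 5 libraries and Star, the most abundant, was at 5.33 to 8.4 CPM. Prdm16 itself was at 25.3 and 20.0 CPM in the Prdm16fl/fl mice and at 17.1, 17.0 and 18.0 CPM in the Ksp-Cre/Prdm16fl/fl mice, a log2 fold change of -0.38 (SE 0.15, edgeR quasi-likelihood adjusted p = 0.259), and -0.41 without mouse 3 of the knockouts (edgeR adjusted p = 0.088). On CPM the groups did not overlap, with every Ksp-Cre/Prdm16fl/fl mouse lower. On the deposited TPM they did, at 5.86 and 4.21 in the Prdm16fl/fl mice and at 4.64, 4.58 and 4.34 in the knockouts, with a log2 fold change of -0.11 by limma on log2(TPM + 1). Counts over a whole gene do not show whether exon 9 is missing, and cells without Cre also contribute to them.

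Ksp-Cre/Prdm16fl/fl mouse 3 stood apart from the other 4 libraries. The first principal component held 56.4% of the variance and put this mouse at 72.2 and the others between -36.2 and -1.92. Its correlation across genes with the other libraries was 0.943 to 0.960, against 0.991 between Ksp-Cre/Prdm16fl/fl mice 1 and 2. Values without this mouse are therefore given beside the fold changes.

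No renin-angiotensin gene differed between the genotypes past an adjusted p of 0.05. Of the 7 tested, 0 were called, against 0.976% of all 16394 genes tested (160 genes, of which 143, or 0.872%, were lower in the Ksp-Cre/Prdm16fl/fl mice and 17, or 0.104%, higher). At an unadjusted p under 0.05, 1 of the 7 passed, Agtr1a, beside 18.8% of all genes. Without Ksp-Cre/Prdm16fl/fl mouse 3, 18.9% of all genes were called (11.0% lower and 7.82% higher) and again 0 of the 7. DESeq2 called 7.20% of all genes (5.33% lower and 1.87% higher) and 0 of the 7. Fold changes are Ksp-Cre/Prdm16fl/fl over Prdm16fl/fl on TMM-scaled counts. Their median over the 7 genes was -0.25 on the log2 scale, beside 0.04 over all genes tested. On CPM, Ace, Agtr1a and Enpep were lower in every Ksp-Cre/Prdm16fl/fl mouse than in either control, a pattern seen in 21.3% of all genes, and none of the 7 was higher in every such mouse, which held for 20.3% of all genes. In either direction the groups were separate for 41.6% of all genes. Asking also for a change of 1 or more on the log2 scale left 0.708% of all genes called and 0 of the 7. The separation of those 3 genes did not hold on the deposited TPM, where knockout mouse 2 was above a control in each, at 39.5 TPM for Ace, 32.3 for Agtr1a and 134 for Enpep. By limma on log2(TPM + 1) the log2 fold changes were -0.20 for Ace, -0.17 for Agtr1a, -0.32 for Enpep, -0.06 for Mme and 0.45 for Agt, with a median of 0.23 over all genes on that scale.

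**Figure D1:**
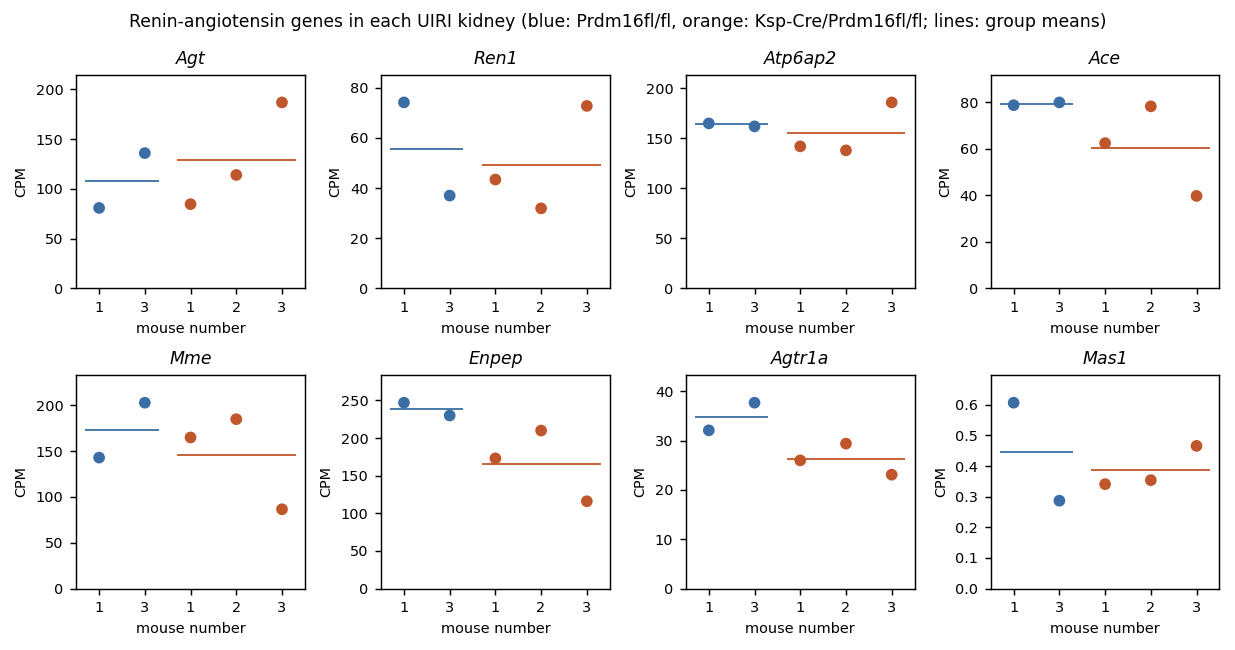
CPM (vertical axis, linear, from 0) of the 8 renin-angiotensin genes in each mouse (horizontal axis, mouse number), with the Prdm16fl/fl mice in blue, the Ksp-Cre/Prdm16fl/fl mice in orange and a line at each group mean. Ren1 and Agt spread widely within both genotypes, and Ace, Mme, Enpep and Agtr1a had their lowest value in Ksp-Cre/Prdm16fl/fl mouse 3.

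Promoter sequence is shown for the genes with the widest and the narrowest spread among the libraries in the first steps of the pathway, Ren1 and Agt against Atp6ap2. The 100 bases before the transcription start are from RefSeq, build GRCm38.p6, in transcript direction. For Ren1 they lie at chr1:133350574-133350673 (plus strand), for Agt at chr8:124569707-124569806 (minus strand) and for Atp6ap2 at chrX:12587659-12587758 (plus strand). Capitals mark TATAAA, and CCAAT or its reverse complement ATTGG.
Ren1: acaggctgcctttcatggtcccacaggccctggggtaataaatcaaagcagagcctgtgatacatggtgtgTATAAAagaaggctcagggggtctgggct
Agt: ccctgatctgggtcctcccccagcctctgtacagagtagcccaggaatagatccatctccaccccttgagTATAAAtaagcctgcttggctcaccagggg
Atp6ap2: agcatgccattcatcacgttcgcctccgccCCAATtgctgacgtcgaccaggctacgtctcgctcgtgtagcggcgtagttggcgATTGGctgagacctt
Ren1 and Agt each held TATAAA on the transcript strand, starting 29 and 30 bases before the start, and Atp6ap2 held CCAAT 70 bases before the start and ATTGG 15 bases before it. TATAAA also lay on the other strand in a window of Ace, 31 bases before the start, and in that of Enpep, 52 bases before it. All 32851 RefSeq promoter windows were searched on both strands over the 250 bases before the start. TATAAA was in 12.4% of them, CCAAT in 33.8% and the palindrome TGACGTCA, the core of the cAMP response element, in 1.55%. Among the 10 windows of the genes described here, CCAAT was also in windows of Ace, Mme, Enpep and Mas1, and TGACGTCA was in none. These motifs do not overlap in the sequences shown. A window was matched for 7 of the 8 genes, all but Agtr1a.

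Agt encodes angiotensinogen, the only known precursor of the angiotensins (chromosome 8, 125283326 to 125296445, minus strand, in the coordinates of the gene tables, whose mouse build is not named and differs from GRCm38). It was at 80.8 and 136 CPM in the Prdm16fl/fl mice and at 84.6, 114 and 187 CPM in the Ksp-Cre/Prdm16fl/fl mice. The groups overlapped, with the lowest value in a control and the highest in Ksp-Cre/Prdm16fl/fl mouse 3. With all mice the log2 fold change was 0.25 (SE 0.38, 95% interval -0.67 to 1.17, edgeR adjusted p = 0.763). It was -0.12 without mouse 3 (edgeR adjusted p = 0.745).

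Ren1 encodes renin, whose cut of angiotensinogen sets the rate of the whole pathway (chromosome 1, 133278412 to 133288058, plus strand). It was at 74.2 and 37.0 CPM in the Prdm16fl/fl mice and at 43.4, 31.9 and 72.8 CPM in the Ksp-Cre/Prdm16fl/fl mice. One mouse of each genotype was high and the remaining 3 were low, so that the groups overlapped fully. The log2 fold change was -0.17 (SE 0.42, 95% interval -1.19 to 0.84, edgeR adjusted p = 0.854). Leaving out Prdm16fl/fl mouse 3 gave -0.59, leaving out Ksp-Cre/Prdm16fl/fl mouse 3 gave -0.56 and leaving out Prdm16fl/fl mouse 1 gave 0.41, none of them called. The interval of the fold, 0.438 to 1.79, leaves room for a change of more than 1.5 times in either direction. If the background is mixed, a further point applies. The 129 strain carries an additional renin gene, Ren2, that is very similar to Ren1. Ren2 is not listed in the tables, so its reads, if a mouse carried it, could be counted as Ren1 or lost, and the Ren1 level is uncertain to that extent. The vascular smooth muscle and pericyte markers, the lineage of the juxtaglomerular cell, summed to 154 and 149 CPM in the Prdm16fl/fl mice and to 198, 163 and 182 CPM in the Ksp-Cre/Prdm16fl/fl mice. The list was split: the pericyte gene Pdgfrb, the most abundant, was at 47.0 and 51.2 CPM in the controls and at 70.1, 65.6 and 64.7 CPM in the knockouts, while the smooth muscle gene Myh11, named after its values were seen, was at 24.1 and 19.2 CPM in the controls and at 15.2, 12.7 and 15.7 CPM in the knockouts. Neither was called with all mice (edgeR adjusted p = 0.113 and 0.167) and both were without mouse 3, at log2 fold changes of 0.47 for Pdgfrb and -0.63 for Myh11 (edgeR adjusted p = 0.0151 and 0.0304). The part of these cells in the Ren1 values was not tested.

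Atp6ap2 encodes the prorenin receptor, which is also an accessory subunit of the vacuolar proton pump (chromosome X, 12453998 to 12483290, plus strand). Its level was 165 and 162 CPM in the Prdm16fl/fl mice and 142, 138 and 186 CPM in the Ksp-Cre/Prdm16fl/fl mice. Mouse 3 was above both controls and the other two knockouts below them. The log2 fold change was -0.08 (SE 0.16, 95% interval -0.47 to 0.32, edgeR adjusted p = 0.835), and -0.22 without mouse 3 (edgeR adjusted p = 0.141). It was the steadiest of the 8 genes, with a ratio of 1.35 between its highest and lowest library, against 2.33 for Ren1 and 2.32 for Agt. The sign for Atp6ap2 depended on scaling, at 0.03 with library size alone and at 0.15 on TPM. Those scalings move the median of all genes to 0.15 and 0.23.

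The ratio of substrate to enzyme varied more among mice than between genotypes. On the deposited TPM scale, which corrects for gene length, Agt over Ren1 was 0.803 and 2.7 in the Prdm16fl/fl mice and 1.44, 2.63 and 1.9 in the Ksp-Cre/Prdm16fl/fl mice. All 3 knockouts lay between the controls.

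Ace encodes angiotensin-converting enzyme, which makes angiotensin II and degrades bradykinin (chromosome 11, 105858774 to 105880790, plus strand). It was at 78.7 and 79.9 CPM in the Prdm16fl/fl mice and at 62.4, 78.2 and 39.7 CPM in the Ksp-Cre/Prdm16fl/fl mice. The groups did not overlap, but mouse 2 lay just under the controls and mouse 3 far below. Ace had a log2 fold change of -0.40 (SE 0.27, 95% interval -1.05 to 0.26, edgeR adjusted p = 0.473). Without mouse 3 it was -0.17 (95% interval -0.44 to 0.10, edgeR adjusted p = 0.347).

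Enpep encodes aminopeptidase A, which turns angiotensin II into angiotensin III (chromosome 3, 129062826 to 129126398, minus strand). Its level was 247 and 230 CPM in the Prdm16fl/fl mice and 173, 210 and 116 CPM in the Ksp-Cre/Prdm16fl/fl mice. Every knockout was below both controls and mouse 3 was again the lowest. Enpep had the largest fold change in size of the 7 tested, -0.52 on the log2 scale (SE 0.25, 95% interval -1.12 to 0.08, edgeR adjusted p = 0.322). It was -0.32 without mouse 3 (SE 0.12, edgeR adjusted p = 0.102).

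Mme encodes neprilysin, which turns angiotensin I into angiotensin 1-7 and degrades natriuretic peptides (chromosome 3, 63202632 to 63291134, plus strand). It was at 143 and 203 CPM in the Prdm16fl/fl mice and at 165, 185 and 86.6 CPM in the Ksp-Cre/Prdm16fl/fl mice. Knockout mice 1 and 2 lay between the controls and only mouse 3 was below them. Mme had a log2 fold change of -0.25 (SE 0.34, 95% interval -1.07 to 0.57, edgeR adjusted p = 0.73), and 0.02 without mouse 3 (edgeR adjusted p = 0.948).

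Agtr1a encodes the main angiotensin II receptor of the mouse kidney (chromosome 13, 30520339 to 30566850, plus strand). It was at 32.1 and 37.7 CPM in the Prdm16fl/fl mice and at 26.0, 29.4 and 23.1 CPM in the Ksp-Cre/Prdm16fl/fl mice. All knockouts were below both controls on CPM. The log2 fold change was -0.41 (SE 0.15, 95% interval -0.79 to -0.04), with an unadjusted p = 0.0356 and an adjusted p = 0.229 in edgeR. It ranged from -0.53 to -0.29 as each mouse was left out in turn, and was -0.33 without knockout mouse 3 (edgeR adjusted p = 0.101).

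The other receptors were scarcely read. Mas1, the receptor of angiotensin 1-7 (chromosome 17, 13056981 to 13087037, minus strand), had 9 and 4 counts in the Prdm16fl/fl mice and 6, 6 and 7 counts in the Ksp-Cre/Prdm16fl/fl mice. Mas1 was under the filter, so a difference in it was not tested in the main fit. Agtr1b, a near-identical copy of Agtr1a, had at most 1 count in a library, and Agtr2, the type 2 receptor, at most 2. Mrgprd, another receptor for angiotensin peptides, was at 0 in all 5 libraries, where up to 3 counts per library could be missed.

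**Figure D2:**
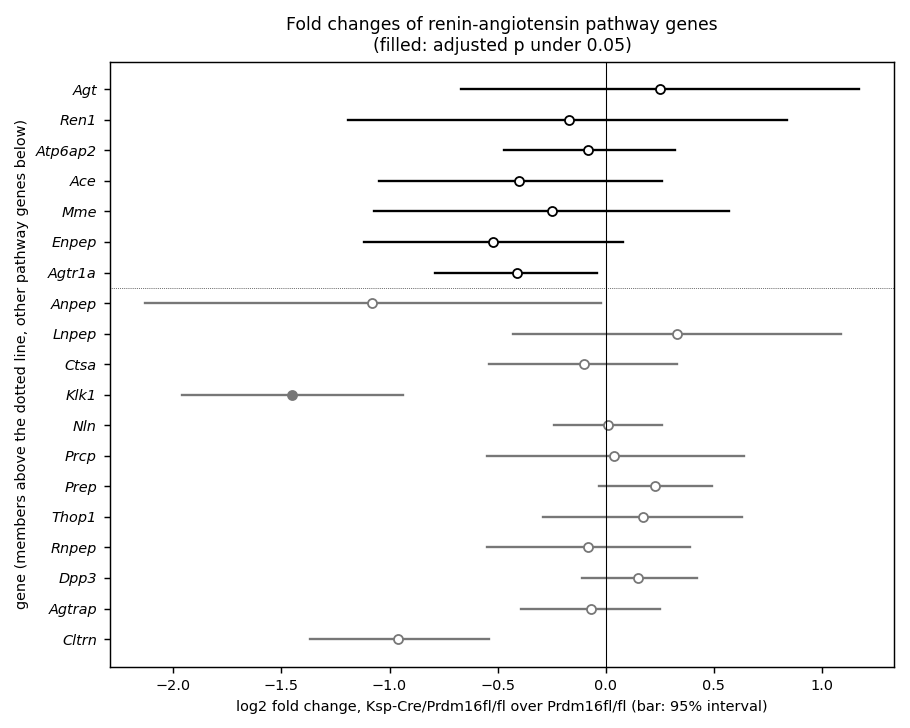
Log2 fold change, Ksp-Cre/Prdm16fl/fl over Prdm16fl/fl (horizontal axis; the bar is the 95% interval), of the 7 renin-angiotensin genes tested (black, above the dotted line) and 12 other pathway genes (grey). Klk1, at -1.45, is the one filled point, with an edgeR adjusted p under 0.05, and of the 7 genes above the line Agtr1a alone has an interval that does not reach 0.

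Levels between genes were compared on TPM, as the mean of the 5 libraries. Atp6ap2 was highest at 162 TPM (SD 16.3), followed by Agt at 150 (SD 51.8), Enpep at 112 (SD 27.9) and Ren1 at 87.6 (SD 32.2). Mme stood at 56.5 TPM (SD 16.9), Ace at 30.9 (SD 7.96), Agtr1a at 29.1 (SD 3.95) and Mas1 at 0.142 (SD 0.0416). The ranges of neighbours in this order overlapped for every pair except Agtr1a and Mas1. Within libraries, Mme was above Ace in all 5, while Atp6ap2 was above Agt in 2 of 5 and Ace above Agtr1a in 3 of 5. In each library Agt and Ren1 were above Agtr1a.

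**Figure D3:**
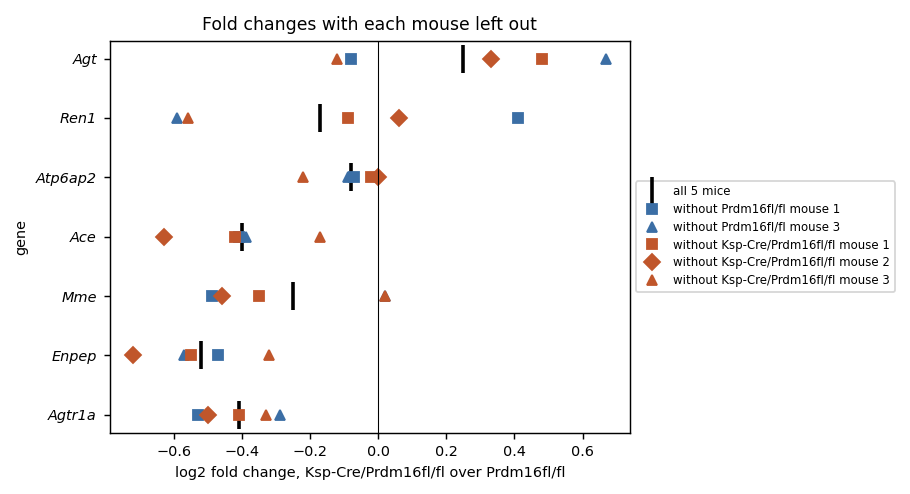
Log2 fold change of the 7 tested genes (horizontal axis) with all 5 mice (black bar) and with each mouse left out (symbols; blue for a Prdm16fl/fl mouse, orange for a Ksp-Cre/Prdm16fl/fl mouse). Ace, Enpep and Agtr1a stay below 0 throughout, while Ren1 runs from -0.59 to 0.41 and Agt from -0.12 to 0.67.

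A further membrane peptidase of the pathway was lower in every knockout. Anpep, aminopeptidase N, which trims angiotensin III, was at 201 and 241 CPM in the controls and at 127, 139 and 46.9 CPM in the knockouts. Its log2 fold change of -1.08 missed the threshold (SE 0.43, edgeR adjusted p = 0.259) and was -0.72 and called without mouse 3 (edgeR adjusted p = 0.00481).

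Brush border peptidases outside the pathway included 2 that fell. Ggt1, gamma-glutamyltransferase, which splits glutathione, was at 651 and 721 CPM in the Prdm16fl/fl mice and at 238, 292 and 277 CPM in the Ksp-Cre/Prdm16fl/fl mice, a log2 fold change of -1.35 (SE 0.15, edgeR adjusted p = 0.0366) and of -1.37 without mouse 3 (edgeR adjusted p = 0.00068). Dpep1, a dipeptidase of the same membrane, was at 102 and 94.4 CPM in the controls and at 38.3, 27.8 and 43.0 CPM in the knockouts, a log2 fold change of -1.43 (SE 0.19, edgeR adjusted p = 0.0412) and of -1.56 without mouse 3 (edgeR adjusted p = 0.000703). Mouse 3 was the lowest of the knockouts in neither of them. Of the 9 brush border peptidases listed, Anpep among them, 8 had a negative fold change and 2 were called lower, beside 0.872% of all genes. Without mouse 3, 6 were called lower, beside 11.0% of all genes. Their median log2 fold change was -1.08 (-0.72 without mouse 3), against -0.25 for the renin-angiotensin genes and 0.04 for all genes. This list leaves out Ace, Mme and Enpep, and its genes varied. Dpp4 was at -0.26 (edgeR adjusted p = 0.309) and Folh1 at 0.23 (edgeR adjusted p = 0.807). Without mouse 3 they were at -0.22 and -0.34, and neither was called in either fit. The meprin gene Mep1b was at 71.1 and 135 CPM in the controls and at 12.1, 21.7 and 0.6 CPM in the knockouts, and its log2 fold change of -3.16 was not called (edgeR adjusted p = 0.169). Without mouse 3 Mep1b was called, at -2.61 (edgeR adjusted p = 0.00176).

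Cell type markers differed between the genotypes beside these genes. All 14 proximal tubule markers had a negative fold change and 2 were called lower, beside 0.872% of all genes, with a median of -1.31 on the log2 scale. Without mouse 3 the median was -1.08 and 12 were called lower, beside 11.0% of all genes. Set against the control mean, this median stood at -1.06 for knockout mouse 1, -1.05 for mouse 2 and -1.75 for mouse 3. Summed over the list, of which Kap was the most abundant, the level was 22300 and 27900 CPM in the controls and 6830, 8590 and 9970 CPM in the knockouts. The 8 tubular injury markers all had a positive fold change (median 1.18, 1 called higher beside 0.104% of all genes), with Spp1 the most abundant. Without mouse 3 the median was 1.08 and all 8 were called higher, beside 7.82% of all genes. Thick ascending limb markers had a median log2 fold change of -0.68 and distal convoluted tubule markers one of -1.0, or -0.40 and -0.70 without mouse 3. The 5 erythroid markers, led by the globin gene Hbb-bs, had the largest median of the marker lists, 3.93 (4.32 without mouse 3). Their sums were 6.67 and 10.8 CPM in the controls and 151, 150 and 40.5 CPM in the knockouts, and all 5 were higher in every knockout, as were 20.3% of all genes. With all mice edgeR called 0 of the 5, and 5 were at an unadjusted p under 0.05, beside 18.8% of all genes. Without mouse 3 it called all 5 higher, beside 7.82% of all genes. Fewer proximal tubule cells and less RNA of these genes per cell cannot be told apart in whole tissue, and the part of either in the peptidase values was not tested, nor was that of blood.

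**Figure D4:**
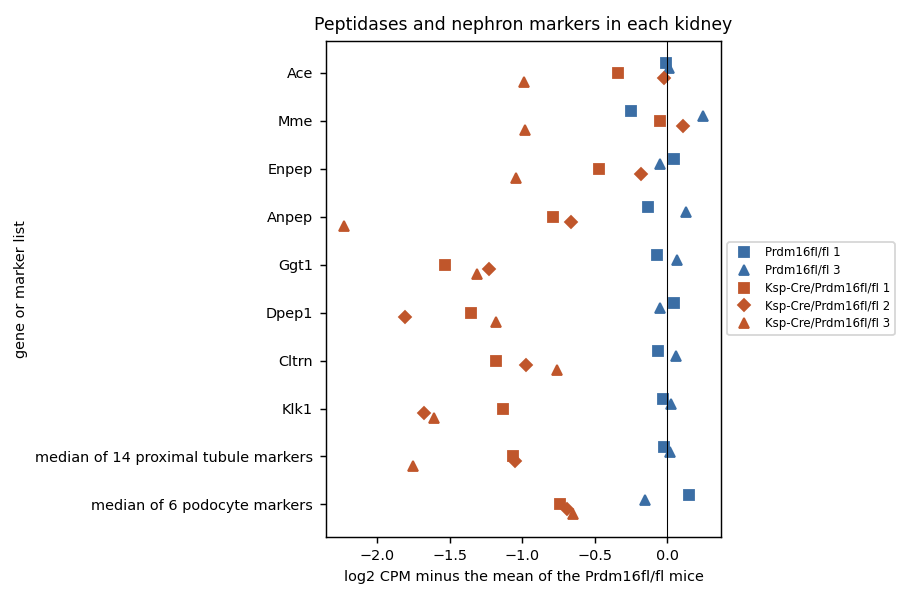
Log2 CPM minus the mean of the Prdm16fl/fl mice (horizontal axis) for membrane peptidases, Cltrn, Klk1 and the medians of the proximal tubule and podocyte markers, 1 symbol per mouse (blue Prdm16fl/fl, orange Ksp-Cre/Prdm16fl/fl). Ace, Mme and Enpep are closest to the controls in knockout mouse 2 or 1 and lowest in mouse 3. Mme is below both controls in mouse 3 alone, while Ace, Enpep, Ggt1, Dpep1, Cltrn and Klk1 are below both in all 3.

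Among other genes of the pathway, 22 were listed for description, 21 were in the tables and 13 were tested. Of the 13, 7 had a negative and 6 a positive fold change, 1 was called lower and 0 higher, beside 0.872% and 0.104% of all genes, and the median was -0.07 on the log2 scale. Without mouse 3, 3 were called lower and 1 higher, beside 11.0% and 7.82% of all genes. The called gene was Klk1, tissue kallikrein, which frees kinins from kininogen. It was at 2130 and 2240 CPM in the Prdm16fl/fl mice and at 1000, 683 and 713 CPM in the Ksp-Cre/Prdm16fl/fl mice, a log2 fold change of -1.45 (SE 0.21, 95% interval -1.96 to -0.94, edgeR adjusted p = 0.0465), and of -1.37 without mouse 3 (edgeR adjusted p = 0.00227). The groups stood well apart. Klk1 belongs to a family of near-identical genes, so its counts are uncertain where reads could be shared. Cltrn, collectrin, a membrane protein that carries amino acid transporters to the brush border, was at 1170 and 1260 CPM in the controls and at 538, 623 and 719 CPM in the knockouts. Its log2 fold change was -0.96 (SE 0.17), just past the threshold on the side not called (edgeR adjusted p = 0.0598), and it was called without mouse 3 at -1.07 (edgeR adjusted p = 0.00132). Lnpep, the angiotensin IV receptor, had a log2 fold change of 0.33 (edgeR adjusted p = 0.608), and was called without mouse 3 at 0.56 (edgeR adjusted p = 0.0482). The chymases Cma1, Cma2 and Mcpt4, the mast cell route to angiotensin II, were under the filter, and so were the mast cell markers Fcer1a and Tpsb2, at 0 in every library. Kit, which is not particular to mast cells, was the most abundant gene of the mast cell list, which summed to 27.9 to 41.8 CPM.

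The kinin arm, which Ace and neprilysin also end, had 6 genes tested, of which Klk1 was the one called, beside 0.872% of all genes lower. Their median log2 fold change was -0.51. Without mouse 3, 2 were called lower and 1 higher, beside 11.0% and 7.82% of all genes. Kng2, a kininogen and so a substrate of kallikrein, was at 365 and 351 CPM in the Prdm16fl/fl mice and at 224, 164 and 147 CPM in the Ksp-Cre/Prdm16fl/fl mice. Its fold change of -1.01 on the log2 scale missed the threshold (SE 0.20, edgeR adjusted p = 0.0726) and was called without mouse 3 at -0.88 (edgeR adjusted p = 0.00622). Cpm, a carboxypeptidase that trims kinins, was higher in each knockout, with a log2 fold change of 0.53 that was not called (edgeR adjusted p = 0.158) and one of 0.48 without mouse 3 that was (edgeR adjusted p = 0.0495). Kng1, of the same list, was at 3.57 and 2.87 CPM in the controls and at 1.99, 1.42 and 2.6 CPM in the knockouts. Its log2 fold change was -0.69 (SE 0.34, edgeR adjusted p = 0.342), or -0.91 without mouse 3 (edgeR adjusted p = 0.0659), not called in either. The kinin receptor gene Bdkrb2 had a log2 fold change of 0.39 (edgeR adjusted p = 0.553), or 0.15 without mouse 3 (edgeR adjusted p = 0.719).

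Downstream of the angiotensin II receptor, 15 signalling genes were tested and 1 fell, beside 0.872% of all genes, with a median log2 fold change of 0.05. Without mouse 3, 2 were called lower and 1 higher, beside 11.0% and 7.82% of all genes. Nox4, an NADPH oxidase abundant in the proximal tubule, was at 246 and 282 CPM in the Prdm16fl/fl mice and at 147, 137 and 141 CPM in the Ksp-Cre/Prdm16fl/fl mice. The groups stood apart, with a log2 fold change of -0.90 (SE 0.12, 95% interval -1.20 to -0.60, edgeR adjusted p = 0.0412), and of -0.89 without mouse 3 (edgeR adjusted p = 0.00173). Plcb1, a phospholipase C that the receptor activates, was at -0.61 (edgeR adjusted p = 0.192) and the G protein subunit Gna13 at 0.44 (edgeR adjusted p = 0.29), neither called. Without mouse 3 Plcb1 was called at -0.44 (edgeR adjusted p = 0.0278) and Gna13 was not, at 0.25 (edgeR adjusted p = 0.0979). The 4 called genes Klk1, Nox4, Ggt1 and Dpep1 were each called without knockout mouse 3 and were not called when any of the other 4 mice was left out. In those 4 fits edgeR called 0 genes of all tested, with 1330 to 2514 at an unadjusted p under 0.05.

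Genes that mark the renin cell or govern renin release gave 0 calls among 16 tested in edgeR and in DESeq2, beside 0.976% and 7.20% of all genes (median log2 fold change -0.06). At an unadjusted p under 0.05 in edgeR there were 3, beside 18.8% of all genes. Without mouse 3, 2 were called lower and 2 higher, beside 11.0% and 7.82% of all genes. Gja5, the connexin through which pressure restrains renin cells, was at 7.89 and 6.03 CPM in the Prdm16fl/fl mice and at 4.03, 3.31 and 1.93 CPM in the Ksp-Cre/Prdm16fl/fl mice. All knockouts were lower, with a log2 fold change of -1.16 (SE 0.35, edgeR adjusted p = 0.162), and the gene was called without mouse 3 at -0.92 (edgeR adjusted p = 0.0292). Akr1b7, an enzyme of renin cells, was at 5.6 and 4.16 CPM in the controls and at 4.54, 3.07 and 3.46 CPM in the knockouts. Its groups overlapped (log2 fold change -0.40, edgeR adjusted p = 0.498, and -0.35 without mouse 3). Nr1h3, of the same list, was at 35.3 and 39.8 CPM in the controls and at 27.7, 29.5 and 24.8 CPM in the knockouts. Its log2 fold change of -0.46 was not called (SE 0.13, edgeR adjusted p = 0.155). Without mouse 3 Nr1h3 was called, at -0.39 (edgeR adjusted p = 0.0447). Adora1, the adenosine receptor that restrains renin release, had a log2 fold change of 1.0 (edgeR adjusted p = 0.215), and Adrb1, the adrenergic receptor that stimulates it, one of -0.72 (edgeR adjusted p = 0.293). Without mouse 3 these were 0.68 (edgeR adjusted p = 0.0903) and -0.56 (edgeR adjusted p = 0.187), neither called. The 2 genes called higher without mouse 3 were Ptger4, at 0.58 (edgeR adjusted p = 0.044), and Rbpj, at 0.48 (edgeR adjusted p = 0.0192). With all mice they were at 0.35 and 0.26, neither called (edgeR adjusted p = 0.557 and 0.631).

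The macula densa signals renin cells by prostaglandin and nitric oxide. Ptgs2, the inducible cyclooxygenase, was at 1.82 and 1.08 CPM in the Prdm16fl/fl mice and at 3.52, 3.84 and 2.93 CPM in the Ksp-Cre/Prdm16fl/fl mice, with a log2 fold change of 1.24 (SE 0.35, edgeR adjusted p = 0.14). Nos1, the neuronal nitric oxide synthase of the same cells, was at 2.56 and 1.65 CPM in the controls and at 1.42, 0.827 and 1.07 CPM in the knockouts, with a log2 fold change of -0.93 (SE 0.39, edgeR adjusted p = 0.271). In both genes the groups did not overlap, in opposite directions. Of the 5 macula densa genes, 1, Nos1, was lower in every knockout, beside 21.3% of all genes. Another 2, Ptgs2 and Ramp3, were higher in every knockout, beside 20.3% of all genes. In edgeR or in DESeq2 0 of the 5 were called, beside 0.976% and 7.20% of all genes. In edgeR 1 was at an unadjusted p under 0.05, beside 18.8% of all genes. Without mouse 3, Ptgs2 alone of the 5 was called (1.34, edgeR adjusted p = 0.0212), beside 18.9% of all genes, and Nos1 was at -0.90 (edgeR adjusted p = 0.141).

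Of the 11 genes of the aldosterone response, the last step of the pathway in the kidney, 0 were called in edgeR and 1 in DESeq2, beside 0.976% and 7.20% of all genes, with 4 at an unadjusted p under 0.05 in edgeR, beside 18.8% of all genes. Their median log2 fold change of -0.28 rested on single mice, at 0.01 without knockout mouse 1, -0.07 without mouse 2 and -0.44 without mouse 3. Without mouse 3, 5 were called lower and 1 higher, beside 11.0% and 7.82% of all genes. Scnn1a, the alpha subunit of the epithelial sodium channel, was at 138 and 135 CPM in the Prdm16fl/fl mice and at 93.5, 68.5 and 83.6 CPM in the Ksp-Cre/Prdm16fl/fl mice, with a log2 fold change of -0.74 (SE 0.15, edgeR adjusted p = 0.0787). Hsd11b2, which shields the mineralocorticoid receptor from glucocorticoid, was at 277 and 229 CPM in the controls and at 197, 147 and 94.7 CPM in the knockouts, with a log2 fold change of -0.79 (SE 0.30, edgeR adjusted p = 0.233). Both were lower in every knockout, and both were called without mouse 3 (-0.75, edgeR adjusted p = 0.0107, and -0.55, edgeR adjusted p = 0.0451). Collecting duct markers, not all of which mark the cells that hold these genes, had a median log2 fold change of -0.75 (-0.57 without mouse 3). Aqp2, the most abundant of them, was at 132 and 132 CPM in the controls and at 132, 57.1 and 153 CPM in the knockouts. Its groups overlapped, with a log2 fold change of -0.21 (edgeR adjusted p = 0.809). The part of collecting duct cells in the values of Scnn1a and Hsd11b2 was not tested. Zbtb16, a transcription factor that corticosteroids induce, was at 9.3 and 12.6 CPM in the controls and at 17.1, 35.0 and 123 CPM in the knockouts. Mouse 3 was the highest by far. The log2 fold change of 2.41 (SE 0.86) was not called (edgeR adjusted p = 0.213), and without that mouse it was 1.26 and called (edgeR adjusted p = 0.025). Fkbp5 and Per1, named after their values were seen, shared the high value in mouse 3, at 399 and 167 CPM, against 175 to 191 and 114 to 118 CPM in the controls. Both were below the controls in knockout mice 1 and 2, at 102 and 142 CPM for Fkbp5 and at 54.6 and 66.0 CPM for Per1. With all mice their log2 fold changes were 0.22 and -0.28, neither called (edgeR adjusted p = 0.861 and 0.788). Without mouse 3 both were called lower, at -0.59 and -0.94 (edgeR adjusted p = 0.03 and 0.00149).

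The natriuretic peptides and endothelin, which oppose and accompany angiotensin, gave 0 calls among 8 genes tested in edgeR and in DESeq2, beside 0.976% and 7.20% of all genes, with 1 at an unadjusted p under 0.05 in edgeR, beside 18.8% of all genes (median log2 fold change -0.01). Without mouse 3, 2 were called higher, beside 7.82% of all genes. Corin, the protease that activates atrial natriuretic peptide, was at 1.62 and 1.79 CPM in the controls and at 0.908, 0.65 and 1.2 CPM in the knockouts. All knockouts were below both controls, with a log2 fold change of -0.89 (SE 0.37, edgeR adjusted p = 0.274) and of -1.11 without mouse 3 (edgeR adjusted p = 0.0595), not called. Edn1, endothelin 1, was at 30.7 and 27.7 CPM in the Prdm16fl/fl mice and at 47.0, 36.8 and 35.0 CPM in the Ksp-Cre/Prdm16fl/fl mice, higher in each knockout, with a log2 fold change of 0.44 (edgeR adjusted p = 0.238) and of 0.52, called, without mouse 3 (edgeR adjusted p = 0.0362). Ednra, the endothelin type A receptor, was at 4.45 and 5.09 CPM in the controls and at 9.76, 10.3 and 3.8 CPM in the knockouts. Mouse 3 lay below the controls and the other knockouts above them, with a log2 fold change of 0.74 (edgeR adjusted p = 0.431) and of 1.07 without mouse 3 (edgeR adjusted p = 0.00582). Ednrb, the endothelin type B receptor, was at 19.9 and 21.1 CPM in the controls and at 19.0, 17.0 and 55.4 CPM in the knockouts, so that its log2 fold change of 0.57 (edgeR adjusted p = 0.604) rested on mouse 3 and was -0.18 without it.

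Podocytes carry Enpep and Mme, as tubules do. The 6 podocyte markers had a median log2 fold change of -0.74 (-0.73 without mouse 3), and 1, Nphs1 (nephrin of the slit diaphragm), was called lower, beside 0.872% of all genes. Without mouse 3 Nphs1 was at -0.84 (edgeR adjusted p = 0.0017), and 5 of the 6 were called lower, beside 11.0% of all genes. In mice 1, 2 and 3 of the knockouts the median stood at -0.74, -0.69 and -0.65 against the control mean. Mesangial markers, the other glomerular home of Agtr1a, had a median log2 fold change of -0.09, or 0.19 without mouse 3. In the fit without that mouse, 2 of the 4 were called higher and 0 lower, beside 7.82% and 11.0% of all genes. Endothelial markers, where Ace is abundant, stood at -0.13, or -0.09 without mouse 3. In the fit without that mouse, 2 of the 7 were called lower and 0 higher, beside 11.0% and 7.82% of all genes. The part of these cells in the 8 genes was not tested.

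The genes whose pattern over the 5 libraries lay nearest to each renin-angiotensin gene were found among 13086 candidates, by the root mean square difference of log2 CPM after centring each gene on its own mean. Enpep lay nearest to Lrrk2 (0.0389) and Fads2 (0.0475), Agtr1a to Nxt2 (0.0374) and Ahcyl1 (0.0416), and Mme to Kcnd3 (0.0429). Ace lay nearest to Ccl5 (0.0526), Atp6ap2 to Napa (0.0136) and Agt to Gcfc2 (0.0801). Ren1 had no comparably near neighbour: Tmem108 and Best3, the nearest, were 0.201 away. With 5 libraries such nearness is a description only.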

How the data were processed

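Raw counts per gene were deposited by the authors for each mouse, together with TPM (the count divided by gene length and scaled to a fixed total) and FPKM. The deposited TPM served for levels between genes and for an alternative test, and the FPKM was not used further. The submitters' processing notes name CASAVA, featureCounts 2.0.1, DESeq2 1.16.1 and the genome build hg38, which is a human build, while the tables hold mouse genes. The aligner and the use of strand are not given in the sources used here. The methods give an MGI sequencer and the labels an Illumina library kit, and the methods name cortex where the labels say kidney.

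Each of the 5 tables lists 35478 genes, 9845 of them at 0 throughout, and 5 gene records broken over lines were rejoined. Counts were filtered with filterByExpr, scaled by TMM and tested by the quasi-likelihood method of edgeR 4.0.16 in R 4.3.3, 2 Prdm16fl/fl mice against 3 Ksp-Cre/Prdm16fl/fl mice with no covariate, with Benjamini-Hochberg adjustment over 16394 genes. The procedure was tested on simulated data. The alternatives were DESeq2 1.42.0, limma 3.58.1 on log2(TPM + 1) or log2(TPM + 0.1), other filters and scalings, each mouse left out, the mouse number as a block, and gene length and GC trends removed. Log2 differences from the control mean and nearness between genes use log2 CPM.

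The 8 genes and all gene lists were chosen with earlier results of these data known. Named from each pathway list were every gene called with all mice and some of the others, not always those with the largest fold change in size. From each marker list came up to 3 of the most abundant genes, with Myh11 and the called gene Nphs1 added. Genes at 0 or under the filter were named only as such. One gene of the pathway and brush border lists enters their counts and medians and is not reported here. Separate mice are the replicates. With 5 mice the smallest one-sided exact p for 1 value is 0.1, so such tests were not run.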

Additional observations from a re-analysis of the deposited data

How the results depend on the processing

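None of the 7 tested renin-angiotensin genes was called under any alternative, and Ace, Enpep, Agtr1a and Prdm16 kept their direction under every one. Several alternatives, the block and unfiltered TPM among them, called no gene at all, so the lack of a call says nothing there. Designs of 2 against 3 mice leave wide intervals, so uncalled genes may still differ. Ren1 reversed to 0.10 with the replicate block, to 0.07 on log2 TPM by limma with either pseudocount or no filter, and to 0.00 with the length trend removed. Atp6ap2 reversed to 0.03 with library size scaling, 0.15 on TPM, 0.02 with the length trend and 0.08 with the length and GC trends removed. The median of all genes, 0.04 here, was 0.15 under library size scaling and 0.21 to 0.26 on TPM. Whether the mouse numbers pair the samples is not stated in the labels, and the methods name littermate controls without matching single mice. The deviations of same-numbered mice correlated at 0.001 and -0.022. With 2 controls these deviations are mirror images of each other, so such values cannot decide on pairing. The block left 0 genes called in edgeR, 2061 at an unadjusted p under 0.05. As each mouse was left out, the log2 fold change ranged from -0.59 to 0.41 for Ren1, -0.12 to 0.67 for Agt, -0.63 to -0.17 for Ace, -0.53 to -0.29 for Agtr1a, -0.49 to 0.02 for Mme, -0.72 to -0.32 for Enpep, -0.22 to 0.00 for Atp6ap2 and -0.54 to -0.21 for Prdm16.

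Of all genes, 143 were called lower and 17 higher. The count lower was 863 by DESeq2, 408 with no filter, 37 with library size scaling, 26 and 23 on TPM with pseudocounts of 1 and 0.1, 0 on TPM with no filter, 46 with the length trend and 36 with the length and GC trends removed. The count higher was 303 by DESeq2, 63 with no filter, 0 on unfiltered TPM and 5 with either trend removed. The share higher among called genes was 10.6%, against 26.0% by DESeq2, 27.5% with library size scaling, 43.5% and 46.5% on TPM and 41.5% without Ksp-Cre/Prdm16fl/fl mouse 3. Leaving out each mouse gave 0 to 1787 lower and 0 to 1266 higher. The cause was not tested.

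Among other pathway genes 2 were called by DESeq2 or with no filter, and 0 with library size or upper quartile scaling, the block, TPM or a trend removed. The kinin genes gave 2 and 0 under those same settings. The receptor signalling genes gave 0 with library size scaling, the block, TPM or a trend removed. The brush border peptidases gave 4 by DESeq2, 1 with library size scaling, filtered TPM or a trend removed, and 0 with the block or unfiltered TPM. The aldosterone genes gave 1 by DESeq2. Leaving out each mouse gave 0 to 4 for the other pathway and renin cell genes, 0 to 3 for signalling and kinin genes, 0 to 6 for brush border and aldosterone genes, 0 to 1 for macula densa genes and 0 to 2 for natriuretic and endothelin genes. The median log2 fold change of each list ranged, as each mouse was left out, from -0.03 to 0.01 for other pathway genes, 0.04 to 0.17 for signalling, -0.11 to -0.02 for renin cell, -0.06 to 0.51 for macula densa, -0.44 to 0.01 for aldosterone, -0.60 to -0.41 for kinin, -0.06 to 0.09 for natriuretic and endothelin and -1.27 to -0.72 for brush border genes.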
